A study of Gallus gallus with 14 samples.

Results

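The lncRNAs described here are the 154 known transcripts that were abundant in the uterovaginal junction (UVJ) of every hen studied. The transcripts were selected on their level and annotation. A transcript was taken when it carried an identifier of the NONCODE database, did not lie on chromosome 16, Z or W, and had at least 10 FPKM (fragments per kilobase of transcript, scaled to the library size) in each of the 14 hens. They were 154 of 9977 lncRNAs in the table, and 2.19% of the 7040 known lncRNAs outside those chromosomes. Since the level in each hen chose them, their abundance and the absence of low values are a description and were not tested. The study compared egg-laying hens with a long duration of fertility (long-DF) with hens with a short one (short-DF), all from 1 farm and kept in single cages on the same diet and light cycle. Its methods describe 1 artificial insemination per hen in an experiment run in replicates, while its account of the trait mentions multiple inseminations. Hens were placed in the long-DF or short-DF group by how long after insemination they laid a fertile egg, or by how many fertile eggs they laid. The long-DF hens were JH14, JH25, JH95, JH104, JF25, JF61 and JF64, and the short-DF hens were JH49, JH68, JH109, JH130, JF21, JF40 and JF56. Each hen gave 1 library of total RNA from the whole UVJ tissue, and no hens were pooled. The meaning of the prefixes JH and JF is not given in the sources used here. Each fertility group held 4 JH and 3 JF hens.

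The UVJ is the narrow band between the uterus and the vagina of the hen, where sperm storage tubules keep spermatozoa alive between inseminations. Long non-coding RNAs (lncRNAs) are transcripts with little or no coding potential. Some act near the gene they are transcribed from, others bind proteins or pair with microRNAs, and for most of those annotated in the chicken no role is known. Most lncRNAs are scarce, and few reach a high level in each animal of a flock.

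The library totals behind the FPKM were between 5900806 and 7571247 fragments in the 8 JH hens and between 6982886 and 8662126 in the 6 JF hens. These totals were derived here from the deposited counts, lengths and FPKM, and are not the numbers of raw reads. Between 213304 and 281892 fragments per hen fell on lncRNAs, and the 154 transcripts took 17.1% to 19.1% of them. The lowest count of any of the 154 in any hen was 17 fragments, and the median over them of the lowest count was 118.5 fragments. The table holds no mRNA, so the identity of the tissue could not be checked on marker genes. As the RNA came from whole tissue, fewer cells of a type and less RNA per cell cannot be told apart.

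The most abundant of the 154 was NONGGAT007919.2, an annotated transcript of 281 nt with the name n77 at chr5:57585874-57586154 on Galgal4. Its FPKM was 458, 673 and 955 (lowest, median and highest) in the long-DF hens, against 516, 724 and 927 in the short-DF hens. It ranked first in all 14 hens. The second was ENSGALT00000028633, a transcript of 329 nt at chr3:87768167-87768495 without a name in the table. It had 264, 382 and 566 FPKM in the long-DF hens, against 276, 411 and 597 FPKM in the short-DF hens, and ranked second in all 14. Neither transcript has an intron, since the length equals the span on the genome. The ranges of the long-DF and short-DF hens overlapped for both.

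The next 4 had a mean over the hens of more than 100 FPKM, and no other did. NONGGAT005018.2 (290 nt, chr22:1295724-1296848) had a mean of 157 ± 24.4 FPKM (SD, n = 14). NONGGAT007827.2 (260 nt, chr5:50470440-50473886) averaged 154 ± 27.7 FPKM. NONGGAT002158.2 (936 nt, chr12:8917492-8918773) averaged 132 ± 29.2 FPKM. NONGGAT004926.2 (730 nt, chr21:4414283-4415117) averaged 122 ± 26.9 FPKM. Neighbours in this order lay within 1 SD of each other, so only the first 2 stood clear of the rest. The list of 10 was completed by NONGGAT002964.2 on chromosome 15 with 95.4 ± 28.2 FPKM, NONGGAT003776.2 on chromosome 2 with 94.8 ± 17.4 FPKM, NONGGAT003037.2 on chromosome 17 with 87.0 ± 11.8 FPKM and NONGGAT013136.1 on chromosome 10 with 84.3 ± 30.8 FPKM (SD, n = 14 each). The plot of the 10 most abundant lncRNAs shows that the hens of both groups overlapped for each of them.

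**Figure D1:**
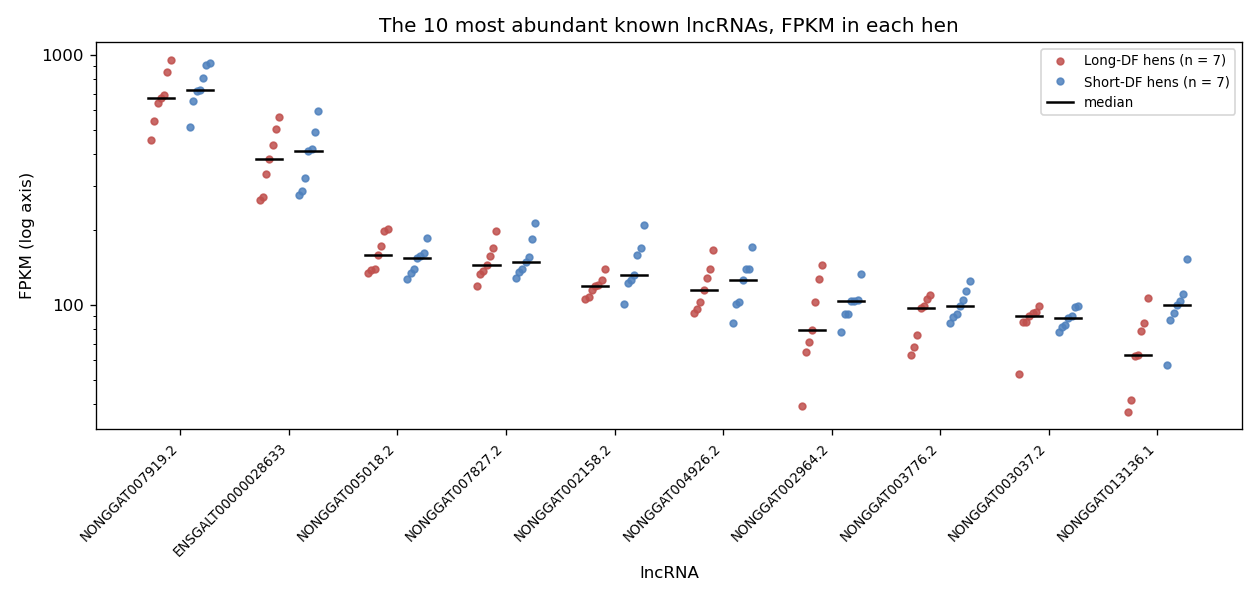
FPKM (log axis) of the 10 most abundant known lncRNAs. Each point is 1 hen, with long-DF hens (n = 7) left of short-DF hens (n = 7), and black lines are medians. NONGGAT007919.2 lies between 458 and 955 FPKM and ENSGALT00000028633 between 264 and 597 FPKM, above the others in each hen.

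The value of NONGGAT007919.2 is uncertain because the table holds a second entry, NONGGAT007916.2, named n77_dup1, with the same length of 281 nt and 105048 bases away on the same chromosome (chr5:57480545-57480825). This second entry was at 0 fragments in 13 hens and at 891 fragments in the short-DF hen JH109, in which NONGGAT007919.2 had 1165 fragments. In the other 13 hens NONGGAT007919.2 had between 897 and 2325 fragments. Summed over both entries, JH109 had 1151 FPKM, above the other 13 hens, which had 458 to 955 FPKM. The coefficient of variation (CV, the SD as a percentage of the mean) over the hens was 21.7% for NONGGAT007919.2 alone and 25.4% for the sum. Whether reads were divided between the 2 entries was not tested.

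RefSeq accessions are given for 3 of the 154, and all 3 were found in the current RefSeq gene table, which supplied the symbols. NONGGAT007585.2 is the transcript of OIP5-AS1, also called Cyrano, a lncRNA conserved among vertebrates that in mammals pairs with a microRNA and lowers its level. With 9268 nt it was the longest of the 154 (chr5:23838599-23853497). It had 15.2, 36.2 and 48.2 FPKM in the long-DF hens (lowest, median and highest), against 13.0, 36.9 and 43.7 FPKM in the short-DF hens. The 3 lowest values were 15.2 FPKM in JF25, 13.0 in JF21 and 13.5 in JF56, and the other 11 hens had between 31.1 and 48.2 FPKM. These 3 hens carry the prefix JF, 1 being long-DF and 2 short-DF, while the other 3 JF hens had 35.3 to 40.5 FPKM. The smallest count among the 14 hens was 841 fragments, so that counting error was small beside this gap. It is overlapped by 2 other known transcripts, and neither exceeded 5.45 FPKM in any hen.

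NONGGAT013136.1 (983 nt, chr10:19537085-19539566) is a non-coding transcript of CIB1, a gene for a calcium-binding protein that binds integrins. It had 37.4, 63.3 and 107 FPKM in the long-DF hens, against 57.7, 100 and 153 FPKM in the short-DF hens. The ranges overlapped, and the highest value was that of the short-DF hen JH130. Another known transcript, NONGGAT013135.1, has the same start and end and a length of 1205 nt. It stayed between 2.14 and 9.39 FPKM, and how fragments were assigned between these transcripts and the coding transcripts of the gene is not given in the sources used here. NONGGAT002711.2 (1298 nt, chr14:14229409-14235974), which RefSeq lists under the symbol C16orf59, had 11.6, 14.3 and 19.6 FPKM in the long-DF hens, against 10.9, 14.5 and 16.2 FPKM in the short-DF hens. It was among the scarcer of the 154.

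The mean FPKM of the 154 had a median of 25.5, with quartiles of 18.1 and 37.3, and 106 of them averaged at least 20 FPKM. The 2 most abundant held 18.0% of the summed mean FPKM of the 154, and the 10 most abundant held 32.9%. In each hen the 154 together held between 38.1% and 43.1% of the FPKM of all 7401 known lncRNAs, with a mean of 40.6% ± 1.23 (SD, n = 14). Of the FPKM of all lncRNAs, known and unknown, they held 17.5% ± 0.692. Their summed FPKM was 5589, 5936 and 6735 in the long-DF hens (lowest, median and highest), against 5886, 6333 and 6847 in the short-DF hens, and these ranges overlapped. Near the threshold, NONGGAT000584.2 with a lowest value of 10.01 FPKM, NONGGAT005521.2 with 10.02 and NONGGAT001860.2 with 10.24 were just inside. NONGGAT012271.1 with a lowest value of 9.94 FPKM, NONGGAT008029.2 with 9.89 and NONGGAT000341.2 with 9.83 were just outside, each in 1 hen only, at means of 32.6, 26.0 and 23.0 FPKM.

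Most of the 154 varied little between hens. Their CV over the 14 hens had a median of 19.0%, with quartiles of 14.8% and 25.3%, and it was under 20% in 86 of them and under 50% in 151. In 87 of the 154 the highest hen had less than 2 times the FPKM of the lowest hen, and in 7 it had at least 4 times as much. Counting alone would give a median CV of 7.28% at these counts, and 26 of the 154 had a CV under 1.5 times their counting value. The requirement of 10 FPKM in each hen itself limits the CV. The 155 other known lncRNAs that averaged at least 10 FPKM but fell under it in some hen had a median CV of 28.1%. The 162 unknown lncRNAs with at least 10 FPKM in each hen had a median CV of 17.6%. The order of the 154 was alike in all hens, with a Spearman's rho between 0.665 and 0.915 (median 0.822) over the 91 pairs of hens. These correlations are across transcripts, which are not independent replicates. Of the 154, 6 were among the 10 most abundant in every hen and 19 in at least 1 hen.

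Across transcripts, the CV was nearly unrelated to the mean count (Spearman's rho 0.07) and weakly related to the mean FPKM (rho 0.24). Within the fertility groups the median CV was 17.6% among long-DF hens and 18.9% among short-DF hens. Within the prefixes it was 18.4% in the JH hens and 14.4% in the JF hens. Single hens supplied unequal numbers of the extremes. The hen JH49 had the highest value of the 14 hens in 30 of the 154 transcripts and JH130 in 23, while JF25 had the lowest value in 25. These are counts on FPKM, where the scaling of a hen enters all its transcripts at once, and its part was not tested. The summed FPKM of the 154 was 6772 in JH49, 5990 in JH130 and 5936 in JF25.

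**Figure D2:**
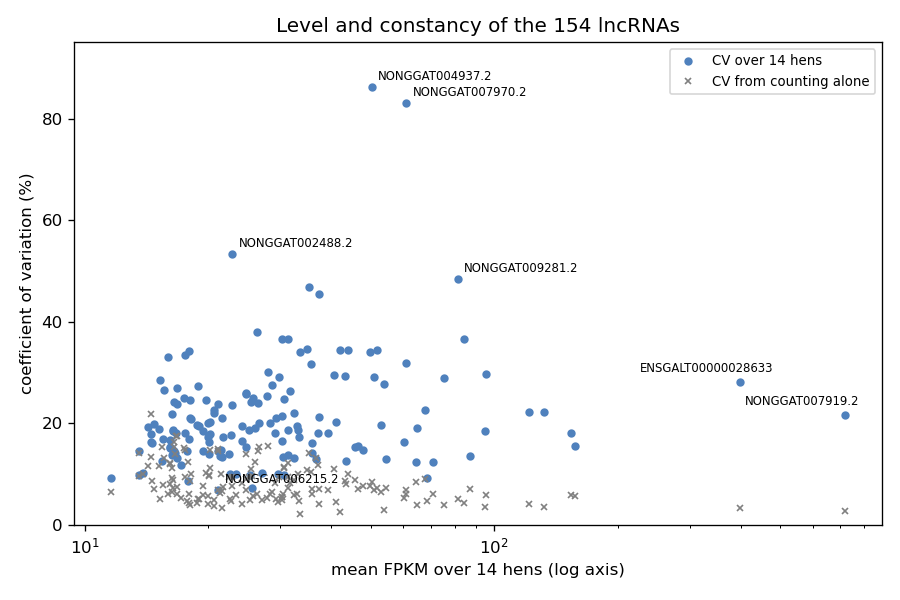
CV of the FPKM over 14 hens (%, points) against the mean FPKM (log axis) for each of the 154 lncRNAs, with the CV that counting alone would give (crosses). Most points lie between 10% and 35%, while NONGGAT004937.2 and NONGGAT007970.2 reach 86.2% and 83.1%.

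The most constant was NONGGAT006215.2 (1401 nt, chr3:53467418-53469698), with a CV of 6.89%. It had 18.9, 22.0 and 24.2 FPKM in the long-DF hens (lowest, median and highest), against 20.4, 20.8 and 22.4 FPKM in the short-DF hens, and its counting value was 6.89% as well. Its spread between hens was thus as large as counting alone would give. NONGGAT005722.2 on chromosome 3 followed with a CV of 7.16% and a range of 22.6 to 28.6 FPKM. NONGGAT013569.1 on chromosome 17 had a CV of 8.60% and a range of 15.4 to 21.3 FPKM. NONGGAT002449.2 on chromosome 13, the least abundant of the 154 with a mean of 11.6 FPKM, had a CV of 9.12%. NONGGAT005663.2 on chromosome 28 had a CV of 9.16% at a much higher mean of 68.5 FPKM, where counting alone would give 4.67%.

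Among the 5 least constant, the hens JH25 and JF25 recurred at the extremes. NONGGAT004937.2 (408 nt, chr21:4839371-4840662) had the highest CV, 86.2%. Among the long-DF hens it had 187 FPKM in JH25, 81.2 in JH95, 61.1 in JH104 and 46.2 in JH14. It had 40.2 FPKM in JF61, 21.1 in JF64 and 15.0 in JF25. The 7 short-DF hens had 15.8 to 54.3 FPKM, within the range of the long-DF hens. The known transcript NONGGAT004936.2, which overlaps it, was also highest in JH25, at 53.5 FPKM, and lowest in JF25, at 4.50 FPKM. NONGGAT007970.2 (624 nt, chr6:2127483-2130724) had a CV of 83.1%. It reached 226 FPKM in the long-DF hen JF25, and the other 13 hens had 17.4 to 83.4 FPKM. NONGGAT002488.2 on chromosome 13 had a CV of 53.3% and a range of 11.5 to 49.7 FPKM, and NONGGAT009281.2 on chromosome 9 had a CV of 48.4% and a range of 27.5 to 182 FPKM, with the highest value in JH25 and the lowest in JF25. NONGGAT002370.2 on chromosome 13, with 201 nt the shortest of the 154, had a CV of 46.7%, a range of 13.3 to 67.5 FPKM and as few as 17 fragments in a hen.

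**Figure D3:**
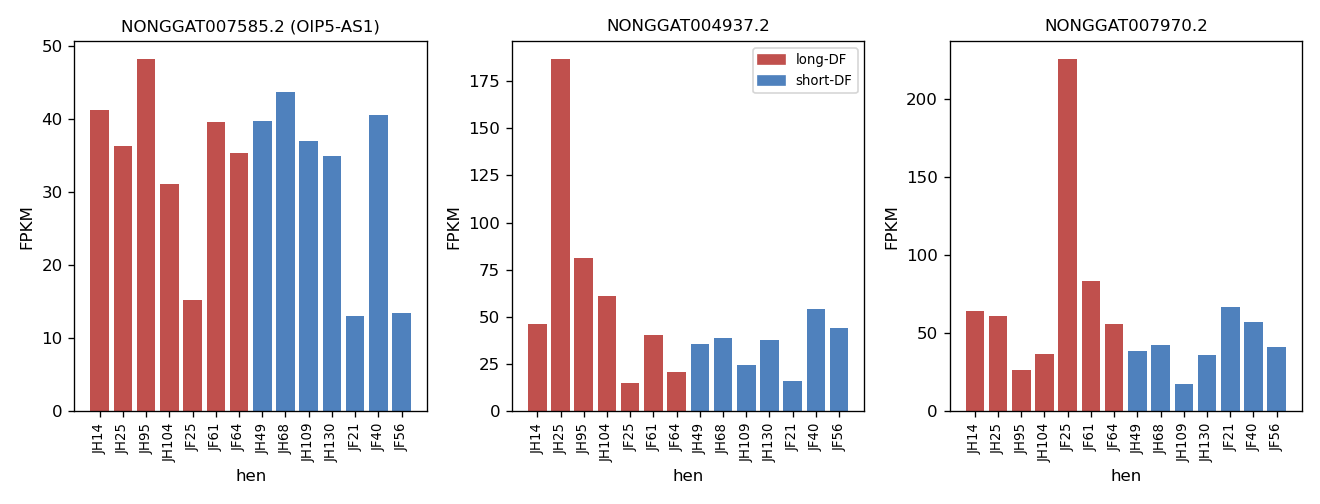
FPKM in each hen of 3 lncRNAs with uneven values, with long-DF hens (red) left of short-DF hens (blue). OIP5-AS1 (NONGGAT007585.2) is at 15.2, 13.0 and 13.5 FPKM in JF25, JF21 and JF56 and at 31.1 or more in the other 11 hens, NONGGAT004937.2 peaks at 187 FPKM in JH25 and NONGGAT007970.2 at 226 FPKM in JF25.

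The lengths of the 154 ran from 201 to 9268 nt, with a median of 775 nt and quartiles of 459.5 and 1632 nt. The 6886 other known lncRNAs outside chromosomes 16, Z and W had a median of 651 nt and quartiles of 409 and 1109 nt. Of the 154, 66 (42.9%) were longer than 1000 nt and 15 (9.74%) shorter than 300 nt, against 2021 (29.3%) and 743 (10.8%) of the others. Among the 154 themselves the shorter classes had the higher levels. The median of the mean FPKM was 35.3 under 300 nt, 30.7 from 300 to 1000 nt and 21.7 above 1000 nt, and 6 of the 10 most abundant were shorter than 500 nt. At the same FPKM a shorter transcript has fewer fragments, so the requirement of 10 FPKM in each hen may act unevenly on length. The levels by length are therefore a description only. The CV was nearly unrelated to length (Spearman's rho -0.08 across the 154). In 6 of the 154 (3.90%) the length equalled the span on the genome, so that they hold no intron, against 77 (1.12%) of the others. These were NONGGAT007919.2, ENSGALT00000028633, ENSGALT00000042579 (chromosome 9, 44.1 FPKM on average), ENSGALT00000042470 (chromosome 4, 40.6 FPKM), NONGGAT005202.2 (chromosome 24, 31.4 FPKM) and NONGGAT000584.2 (chromosome 1, 14.7 FPKM). No test of these shares was run.

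The 154 were spread over 25 numbered chromosomes and 1 linkage group. The large chromosomes 1 to 5 held 60 of them (39.0%), chromosomes 6 to 10 held 25 (16.2%) and chromosomes 11 to 28 held 68 (44.2%). Of the other known lncRNAs 50.9% were on chromosomes 1 to 5, 19.5% on chromosomes 6 to 10 and 29.6% on chromosomes 11 to 28. Chromosome 3 held the most, 16, followed by chromosome 5 with 14 and chromosome 1 with 12. The collections behind the annotation gave unequal shares. Ensembl transcripts supplied 5 of the 154 and 32 of all known lncRNAs outside chromosomes 16, Z and W, RefSeq transcripts 3 of 42, and the largest NONCODE collection 73 of 2625 (2.78%). Of the 2 collections labelled by a publication, 1 supplied 67 of 2562 (2.62%) and the other 5 of 1776 (0.282%).

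**Figure D4:**
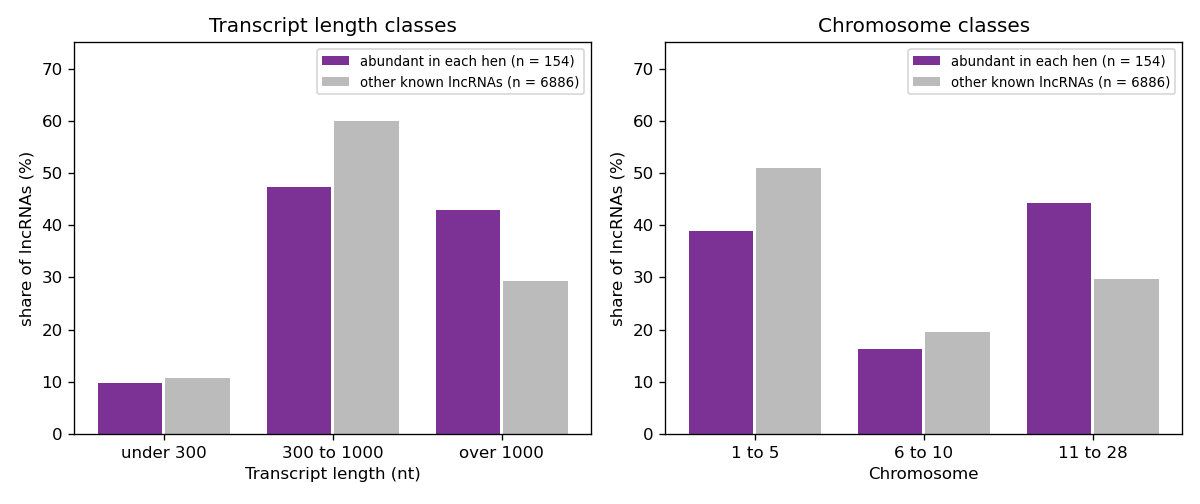
Share (%) of lncRNAs by transcript length class (nt, left panel) and chromosome class (right panel), for the 154 abundant known lncRNAs (purple) and the 6886 other known lncRNAs (grey). Above 1000 nt are 42.9% of the abundant and 29.3% of the other lncRNAs, and 44.2% and 29.6% lie on chromosomes 11 to 28.

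Of the 154, 111 overlapped no other lncRNA of the table, 41 overlapped another known lncRNA and 2 overlapped an unknown one, on either strand, since the table gives no strand for known lncRNAs. The table holds lncRNAs only, and overlap with protein-coding genes was not examined. Only 1 pair of the 154 overlapped, NONGGAT010518.2 (chr17:2450463-2451090) and NONGGAT010517.2 (chr17:2450776-2451172), which share 315 bases of their spans. They averaged 64.5 ± 7.89 and 20.2 ± 3.61 FPKM (SD, n = 14 each). With NONGGAT009607.2, 2414 bases further on, they formed the densest group of the 154. Neighbours were compared over the 14 hens for the 5 pairs of the 154 that lay within 10 kb, a limit chosen after seeing the data, on log2 FPKM with 100000 permutations and Benjamini-Hochberg adjustment over the 5 pairs. As a background, Pearson's r over all 11781 pairs of the 154 had a median of 0.08 and quartiles of -0.21 and 0.34.

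The closest relation was between NONGGAT002964.2 and NONGGAT002966.2, which lie 932 bases apart on chromosome 15 and averaged 95.4 and 75.2 FPKM (Pearson's r = 0.97, permutation p = 1e-05, the smallest these permutations can give, adjusted p = 5e-05, Spearman's rho = 0.93, permutation p = 1e-05, adjusted p = 5e-05). Without JF25 and JH95, the hens farthest from the median, r was 0.95, and it was 0.97 within the JH hens and 0.999 within the JF hens. Both were lowest in JF25, at 39.3 and 35.7 FPKM. NONGGAT010517.2 and NONGGAT009607.2 had an r of 0.93 (permutation p = 5e-05, adjusted p = 0.000125, rho = 0.91, permutation p = 3e-05, adjusted p = 7.5e-05), which was 0.89 without JF40 and JH49, 0.81 within the JH hens and 0.93 within the JF hens. The overlapping pair NONGGAT010518.2 and NONGGAT010517.2 had an r of 0.84 (permutation p = 0.00018, adjusted p = 0.000288, rho = 0.85, permutation p = 0.00026, adjusted p = 0.000433), which was 0.73 without JF61 and JF40, 0.73 within the JH hens and 0.85 within the JF hens. Fragments of a shared stretch may have been counted on either transcript, which was not tested.

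The relation was less even in the remaining 2 pairs. NONGGAT006457.2 and NONGGAT006458.2, 369 bases apart on chromosome 3, had an r of 0.88 (permutation p = 0.00023, adjusted p = 0.000288, rho = 0.77, permutation p = 0.00193, adjusted p = 0.00241). Without JH109 and JH25 r was 0.60, and it was 0.94 within the JH hens and -0.28 within the JF hens, so that the relation did not hold within the JF hens. NONGGAT003271.2 and NONGGAT003272.2, 1084 bases apart on chromosome 18, had an r of 0.58 (permutation p = 0.03, adjusted p = 0.03, rho = 0.61, permutation p = 0.0251, adjusted p = 0.0251). Without JH95 and JF25 r was 0.34, and leaving out the farthest hens lowered r in every pair compared. For NONGGAT003271.2 and NONGGAT003272.2 r was 0.77 within the JH hens and 0.69 within the JF hens, both above the value over all hens.

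The comparison of long-DF with short-DF hens addressed lncRNAs related to the duration of fertility. No difference between these groups was called for any of the 154. All 154 passed the filter of the test (at least 0.1 FPKM in at least 7 hens), and 0 of them reached an adjusted p of at most 0.05 in edgeR, with or without the study's further thresholds (an unadjusted p no higher than 0.01, and a log2 fold change of 2 or more in size). Of the 6887 lncRNAs tested, 0 (0.0%) were called by either rule. The authors, using edgeR with their thresholds, did report lncRNAs that differed between these groups, and checked some of them by qPCR. Which edgeR test they used is not given in the sources used here, and the reason for the disagreement was not tested. An unadjusted p under 0.05 was found for 3 of the 154 and for 146 of all tested (2.12%). The number among the 154 was 7 with the library totals as scaling and 6 or 7 with limma, depending on the pseudocount. The matching numbers over all tested under these settings are not given here, so these counts cannot be set against the 2.12%. DESeq2 and limma also called 0 of the 154. The absolute log2 fold change had a median of 0.11 in the 154 and 0.24 in all tested, and none of the 154 reached 1. Fold changes of the 154 are limited by the requirement of 10 FPKM in each hen, so these sizes are a description only. Of the 154, 49 (31.8%) had a positive and 105 a negative log2 fold change, against 3342 positive (48.5%) over all tested. The median log2 fold change was -0.06 in the 154 and -0.02 over all tested. The 154 share the same hens and the scaling of each hen, so their signs are not independent. The uneven count of signs was not tested. The ranges of the 2 groups overlapped for each of the 154, while 3 of all tested (0.0436%) did not overlap.

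The smallest p among those lower in the long-DF hens was that of NONGGAT004062.2 (374 nt, chr2:60426899-60429286). It had 10.8, 11.7 and 19.7 FPKM in the long-DF hens (lowest, median and highest), against 14.5, 19.5 and 30.7 FPKM in the short-DF hens, with a log2 fold change of -0.57 ± 0.21 (SE, adjusted p = 0.995). The ranges overlapped. NONGGAT013136.1, the CIB1 transcript, had a log2 fold change of -0.53 ± 0.26 and NONGGAT004569.2 on chromosome 2 one of -0.30 ± 0.15. Among those higher in the long-DF hens, NONGGAT006414.2 (777 nt, chr3:79593285-79606646) had 15.5, 45.4 and 66.1 FPKM in the long-DF hens, against 14.8, 27.1 and 49.5 FPKM in the short-DF hens, with a log2 fold change of 0.69 ± 0.29. NONGGAT007970.2 had the largest, 0.93 ± 0.43, which was 0.36 without the hen JF25. NONGGAT006458.2 had 0.35 ± 0.17. The adjusted p was 0.995 for each of these 6.

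The JH and JF hens were compared with the fertility group as a covariate, since the prefix is the only other label that divides the hens. None of the 154 passed all 3 thresholds, against 190 of 6887 tested (2.76%), as none reached a log2 fold change of 2 in size. The requirement of 10 FPKM in each hen itself limits the fold changes of the 154, so these 2 shares cannot be compared directly. With the adjusted p as the sole criterion, 15 of the 154 (9.74%) differed, against 477 of all tested (6.93%). At this adjusted p DESeq2 gave 18 of the 154, 5 higher and 13 lower in the JH hens, against 252 higher and 252 lower of all tested. With a pseudocount of 0.1 limma gave 17, 11 higher and 6 lower, against 340 higher and 212 lower of all tested. Both gave 0 of the 154 at all 3 thresholds. An unadjusted p under 0.05 was found for 41 of the 154 (26.6%) and for 19.5% of all tested. The 154 were chosen for a high level, and more fragments make a difference easier to detect. These shares therefore cannot be compared directly either. At the adjusted p alone, 5 of the 154 were higher and 10 of the 154 lower in the JH hens. Of all 6887 tested, 229 (3.33%) were higher and 248 (3.6%) lower. When the library totals behind the FPKM replaced the TMM scaling, the median log2 fold change of all tested moved by 0.12. With this scaling 10 of the 154 passed, 8 higher and 2 lower in the JH hens. Of all 6887 tested, 297 passed as higher and 179 as lower in the JH hens. Of the 10, 7 were among the 15, and all 15 kept their direction. The library totals were larger in the JF hens, as given above, and their part in these differences was not tested.

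The 15 differed by modest amounts, with absolute log2 fold changes from 0.33 to 1.19. The JH and JF ranges did not overlap for 5 of the 154 (3.25%), all of them among the 15, against 243 of all tested (3.53%), so that this share was near that of all lncRNAs. The smallest adjusted p was that of NONGGAT003466.2 (521 nt, chr19:5140877-5141769). It had 11.3, 12.7 and 16.4 FPKM in the JH hens (lowest, median and highest), against 15.3, 19.6 and 23.1 FPKM in the JF hens, with a log2 fold change of -0.72 ± 0.13 (SE, adjusted p = 0.003, between 6.57e-05 and 0.015 over the alternatives tried). A single JH hen reached into the JF range. NONGGAT005724.2 (923 nt, chr3:2610244-2616547) had 11.1, 15.6 and 18.1 FPKM in the JH hens, against 18.6, 20.6 and 21.9 FPKM in the JF hens, with no overlap. Its log2 fold change was -0.53 ± 0.10 (adjusted p = 0.00688, between 4.23e-05 and 0.0545 over the alternatives). NONGGAT000026.2 (1594 nt, chr1:732083-735390) had 17.8, 23.1 and 30.6 FPKM in the JH hens, against 26.0, 40.8 and 55.3 FPKM in the JF hens, with a log2 fold change of -0.85 ± 0.19 (adjusted p = 0.0141, between 0.00152 and 0.0439 over the alternatives).

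Among those higher in the JH hens, NONGGAT008107.2 (1518 nt, chr6:16061477-16065534) had 26.3, 33.8 and 41.7 FPKM in the JH hens, against 13.9, 15.5 and 23.0 FPKM in the JF hens. Its ranges did not overlap, and its log2 fold change was 0.87 ± 0.16 (adjusted p = 0.00365, between 1.31e-05 and 0.0136 over the alternatives). NONGGAT013263.1 (446 nt, chr12:10998545-10999840) had 37.4, 55.3 and 62.6 FPKM in the JH hens, against 27.7, 30.1 and 37.3 FPKM in the JF hens, with a log2 fold change of 0.58 ± 0.15 (adjusted p = 0.0327, between 0.00385 and 0.0741 over the alternatives). Its highest JF hen lay just under its lowest JH hen. NONGGAT005649.2 (5887 nt, chr28:3573689-3580364) had 20.3, 24.8 and 28.8 FPKM in the JH hens, against 15.9, 16.6 and 22.8 FPKM in the JF hens, with a log2 fold change of 0.37 ± 0.10 (adjusted p = 0.0371, between 0.00194 and 0.0865 over the alternatives). The largest change of the 15 was that of NONGGAT007970.2, -1.19 ± 0.31 (adjusted p = 0.0339). Without the hen JF25, in which it had 226 FPKM, the log2 fold change was -0.79 and the adjusted p 0.0649.

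**Figure D5:**
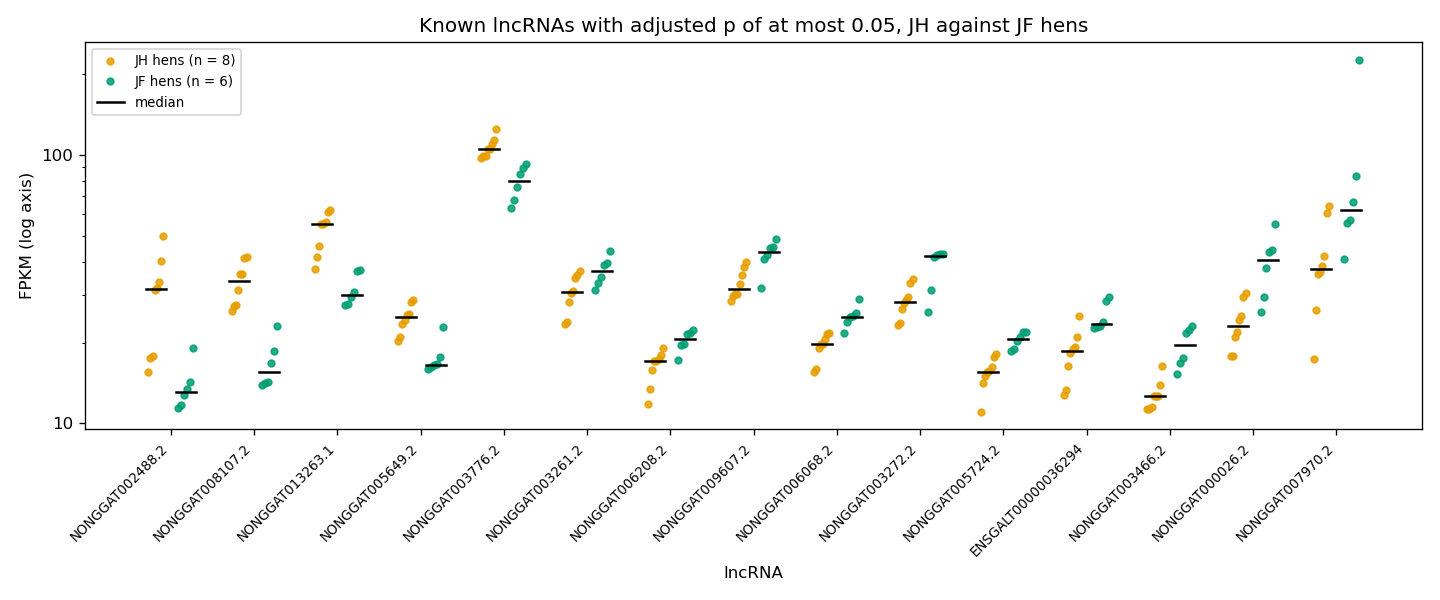
FPKM (log axis) of the 15 lncRNAs with an adjusted p of at most 0.05 between prefixes, ordered by log2 fold change. Each point is 1 hen, with JH hens (n = 8) left of JF hens (n = 6), and black lines are medians. The first 5, from NONGGAT002488.2 to NONGGAT003776.2, are higher in the JH hens and the other 10 lower.

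How many of the 154 passed between prefixes depended on single hens. With each hen left out in turn, between 6 and 12 of the 154 passed at an adjusted p of 0.05. The number was 6 without JH14, JF64 or JF56, 7 without JF61 or JF21, 8 without JH109 or JF40 and 9 without JH130. The matching numbers over all tested are not given here, so this dependence cannot be called particular to the 154. NONGGAT003466.2, NONGGAT005724.2, NONGGAT000026.2, NONGGAT008107.2 and ENSGALT00000036294 passed in all 14 of these fits, while NONGGAT013263.1 passed in 7 and NONGGAT005649.2 in 5 of them. ENSGALT00000036294 (315 nt, chr12:806644-806960) had 12.7, 18.6 and 25.2 FPKM in the JH hens, against 22.6, 23.5 and 29.5 FPKM in the JF hens (log2 fold change -0.60 ± 0.14, adjusted p = 0.0163). With the library totals as scaling its adjusted p was 0.0718, and that of NONGGAT005724.2 was 0.0545. Of the 10 most abundant lncRNAs, only NONGGAT003776.2 passed between prefixes, with 97.7, 105 and 125 FPKM in the JH hens, against 63.2, 80.2 and 92.2 FPKM in the JF hens (log2 fold change 0.33 ± 0.09, adjusted p = 0.0464, between 0.00184 and 0.104 over the alternatives). NONGGAT007919.2 missed the threshold at -0.46 ± 0.13 (adjusted p = 0.0522). This value leaves out the fragments on NONGGAT007916.2 in the JH hen JH109, and the sum of both entries was not compared between prefixes.

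The effect of the fertility group did not differ detectably between the prefixes. In the fit with an interaction, 0 of the 154 reached an adjusted p of at most 0.05 in edgeR, against 0 of all tested (0.0%), and the same was found with DESeq2 and limma. An unadjusted p under 0.05 was found for 4 of the 154 and for 308 of all tested (4.47%). With 4 against 4 JH hens and 3 against 3 JF hens, the interaction rested on fewer hens per group than either main comparison.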

How the data were processed

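RNA of the UVJ of 14 hens was sequenced, 1 library per hen. The authors mapped reads to Galgal4 (TopHat), built transcripts (StringTie), matched these to gene annotations (Gffcompare) and, by their account, removed short, single-exon or coding ones. Known lncRNAs without introns remain in the table. They deposited raw fragment counts per lncRNA without normalization. They also deposited FPKM, normalized by the authors for transcript length and library total. The same table gives the length and position of each lncRNA, from which overlaps were found. A separate deposited annotation of the exons of unknown lncRNAs was not used here. The counting tool and its strand setting are not given in the sources used here. The library total of each hen was derived here, as a median over lncRNAs of the count divided by length and FPKM. With this total the FPKM of the 154 transcripts were reproduced within 0.00251%. As the totals came from the same FPKM, this shows only that 1 total per hen served all 154.

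Counts were fitted with edgeR 4.0.16 (R 4.3.3, TMM, quasi-likelihood test) over 6887 lncRNAs with at least 0.1 FPKM in at least 7 hens, with Benjamini-Hochberg adjustment over all of them. The SE of a log2 fold change is its size divided by the square root of F. Alternatives were DESeq2 1.42.0, limma 3.58.1 on log2(FPKM + 0.1) or log2(FPKM + 1), other scalings and covariates, no filter, and leaving out each hen. Pairs were permuted with numpy 2.4.6 in Python 3.11.15.

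Transcripts were named by a rule: the 10 most abundant, the 5 lowest and 5 highest CVs, the 3 smallest p per direction and comparison, those nearest the threshold, the longest and shortest, overlapping ones and those from RefSeq. Neighbours within 10 kb, transcripts without introns, ENSGALT00000036294 and the copy of n77 were named after their values were seen. The transcripts and lists were chosen with earlier results of these data known. Hens are separate animals, and counts set a counting error only, since PCR copies cannot be told from separate molecules.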

Additional observations from a re-analysis of the deposited data

Results flagged for a closer look

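Among 49 of the lncRNAs described above, a single hen lay far from the other 6 of its fertility group in 6 of 98 groups, by the gap to the nearest hen relative to the whole range (Dixon's test at the 95% level). For normally distributed values that were not selected, chance flags about 1 in 20 groups. Some of these lncRNAs were named for a high CV or a small p in the same hens, so this rate does not apply to them. In the long-DF hens, JF25 was high for NONGGAT007970.2 (225.6 FPKM, others 26.4 to 83.4) and low for NONGGAT003037.2 (53.0 FPKM, others 85.5 to 98.7). JH25 was high for NONGGAT004937.2 (186.7 FPKM, others 15.0 to 81.2), for NONGGAT006458.2 (49.4 FPKM, others 23.0 to 33.7) and for NONGGAT002449.2 (13.3 FPKM, others 10.6 to 11.6). In the short-DF hens, JF40 was high for NONGGAT010518.2 (78.1 FPKM, others 57.4 to 65.7).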

How the results depend on the processing

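No paired analysis was run, since the sources used here describe no pairing of hens between the 2 groups. The main fit of long-DF against short-DF hens held no covariate. With the prefix as a covariate, 0 of the 154 reached an adjusted p of at most 0.05 between these groups. The count of 0 of the 154 between long-DF and short-DF hens, and that of 0 for the interaction, held under each alternative tried. Between JH and JF hens, 15 of the 154 had an adjusted p of at most 0.05, and 10 to 18 under other tools, filters or scalings. With each hen left out the number was 6 to 12, and the matching numbers over all tested are not given here. Without the filter 10 of the 154 passed, against 182 higher and 232 lower of all lncRNAs fitted. With the library totals as scaling, 8 were higher and 2 lower in the JH hens, against 5 and 10 with TMM, and with limma on log2(FPKM + 0.1) 11 were higher and 6 lower. The fold changes of the 15 kept their direction in 315 of 315 alternatives, of which 121 missed the threshold, and those of the 6 named between long-DF and short-DF hens in 138 of 138. These lncRNAs were picked for a small p in the same hens that most alternatives refit. A kept direction was therefore likely beforehand and is no independent support, and none of the 6 reached the adjusted p of 0.05. The number of lncRNAs, 154, was 319 at 5 FPKM, 56 at 20 FPKM and 309 for a mean of at least 10 FPKM, and 154 to 159 with each hen left out. Their median CV of 19.0% was 14.4% within the JF hens, and 18.5% to 19.4% with each hen left out. Their share of 40.6% was 17.5% of the FPKM of all lncRNAs and 39.3% of the fragments on known lncRNAs, and 40.4% to 40.8% with each hen left out. The causes were not tested. The sum of both n77 entries was chosen after seeing the data.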
